A study of Mus musculus with 6 samples.

Results

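The genes described here are the Rab GTPases of the mouse, taken as every gene whose platform symbol is Rab followed by a number and at most a letter with a digit, on probe sets with a single symbol. They numbered 59 of the 18193 genes named on the array. Of these, 45 had a probe set above log2 4 on at least 3 of the 6 arrays and were tested, among 10151 genes tested in all. Bone marrow of 3 Grem1;TdTomato mice on a C57BL/6J background, aged 6 to 8 weeks and given tamoxifen by mouth, was digested and sorted into 2 fractions, each hybridised to Affymetrix arrays with 1 array per fraction and mouse. The Grem1+ fraction is described in the labels only as sorted for Grem1, the gene of the BMP antagonist Gremlin 1. The Grem1- fraction held non-recombined cells that lacked CD45, CD31 and Ter-119 in the sort. All animals in both groups carried the reporter and received tamoxifen, so neither group is untreated. Mouse numbers used here are the replicate numbers of the array titles, taken as the mouse. The comparison asked which transcripts set Grem1+ cells apart from the other marrow cells that the gate leaves.

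Rab proteins are small GTPases that act as switches on the membranes of the cell. In the GTP-bound form each sits on a given compartment and recruits effectors that bud, move, tether and fuse vesicles, and in the GDP-bound form it is drawn back into the cytosol. Guanine nucleotide exchange factors (GEFs) load GTP, GTPase-activating proteins (GAPs) end the signal, and a prenyl transferase and GDP dissociation inhibitors (GDIs) govern membrane attachment. Cells of cartilage and bone send large amounts of matrix through the endoplasmic reticulum (ER) and Golgi, whereas granulocytes, mast cells and platelets store their products in granules that are released on stimulation.

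Values are log2 expression per probe set as deposited, made with GCRMA per the submitters' processing notes. Values under log2 4 are called dim. The median of an array lay between 3.74 and 3.81. CD45 is encoded by Ptprc, whose level was 9.15 ± 1.68 in Grem1+ and 12.09 ± 0.30 in Grem1- (log2 level, SD, n = 3 each, limma adjusted p = 0.0609). A second Ptprc probe set read 2.53, 3.30 and 3.71 in Grem1+, all dim, and 9.38, 8.37 and 8.81 in Grem1-. Ptprc was thus bright in the fraction gated against CD45, while its signal in Grem1+ depended on the probe set. Pecam1, which encodes CD31, was at 3.30 ± 0.45 in Grem1+ and 4.80 ± 0.52 in Grem1- (log2 level, SD, n = 3 each, limma adjusted p = 0.0587). Grem1 itself stood at 4.49, 4.14 and 8.61 in Grem1+ and at 3.69, 3.75 and 3.70 in Grem1- (log2 level), and the difference did not pass (limma adjusted p = 0.248). Male is the sex given for all animals. Xist, which is transcribed from the inactive X, nevertheless read 10.60 in Grem1+ and 11.04 in Grem1- of mouse 3 (log2 level, brightest probe set), and at most 2.99 on the other arrays. For the Gapdh controls, the gap between 3' and 5' probe sets, which widens as RNA shortens, ran from 2.98 to 3.88 in Grem1+ and from 2.31 to 2.99 in Grem1- (log2). The actin controls did not show the wider gap, since Grem1+ arrays lay between -0.031 and 0.17 and Grem1- arrays between 0.15 and 0.17 (log2). In RNA from bulk fractions, fewer cells of a type and less RNA per cell cannot be told apart.

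Few Rab genes passed the threshold between the fractions, and those that did went both ways. Of the 45 tested genes, 3 were higher in Grem1+, namely Rab39b, Rab34 and Rab33b, and 3 were lower, namely Rab3d, Rab44 and Rab8b (limma with the mouse as a block, Benjamini-Hochberg adjusted p of 0.00948 to 0.0402). That is 13.3% of the Rab genes, against 20.2% of all genes tested. By direction it is 6.67% higher against 11.7% of all genes, and 6.67% lower against 8.51%. The 3 higher genes are all assigned to the ER and Golgi, and the 3 lower genes are all assigned to exocytosis and secretory granules. Compartments were assigned from general knowledge, 1 per gene, with earlier results of these data known, so this split is a description and was not tested. The median difference was -0.03 over the Rab genes and 0.04 over all genes (log2, Grem1+ minus Grem1-). The absolute difference was under 0.5 for 19 Rab genes, 0.5 to 1 for 10 and at least 1 for 16. The last group is 35.6% of the Rab genes, against 41.4% of all genes. Rab2b had the largest positive difference at 3.84 and Rab3d the largest negative one at -3.96.

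The arrays of the 2 groups did not overlap for 22 Rab genes, 48.9% of those tested, against 43.1% of all genes. Of these, 12 were higher in Grem1+ (26.7%, against 23.2% of all genes) and 10 were lower (22.2%, against 19.8%). In 29 genes the difference had the same sign in all 3 mice, which is 64.4% of the Rab genes and 58.4% of all genes. Without the mouse as a block, 7 Rab genes were higher and 3 lower, with Rab13, Rab18, Rab27b and Rab3a added to the higher ones. Calls rose over all genes too, to 25.1% without the block from 20.2% with it. Leaving out any mouse with the block kept gave 0 calls among all 10151 genes. An unadjusted p under 0.05 was then seen in 10 to 12 of the 45 Rab genes and in 2881 to 3018 of all genes. Leaving out mouse 3, whose Xist level goes against its label, without the block gave 2 higher and 3 lower Rab genes, namely Rab39b and Rab34, and Rab3d, Rab8b and Rab32. Leaving out mouse 1 in that way ended the calls of Rab34 and Rab44, leaving out mouse 2 those of Rab34 and Rab33b, and leaving out mouse 3 those of Rab33b and Rab44. By presence above log2 4, 30 Rab genes were above the limit on all 6 arrays, 4 on 5, 5 on 4 and 6 on 3. Rab39b, Rab34 and Rab3a were above it on every Grem1+ array and on no Grem1- array, and Rab3d was the only gene with the reverse pattern. The tested probe sets of these genes met the filter only through the group where they were higher. This pattern is therefore no separate support for their differences.

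**Figure D1:**
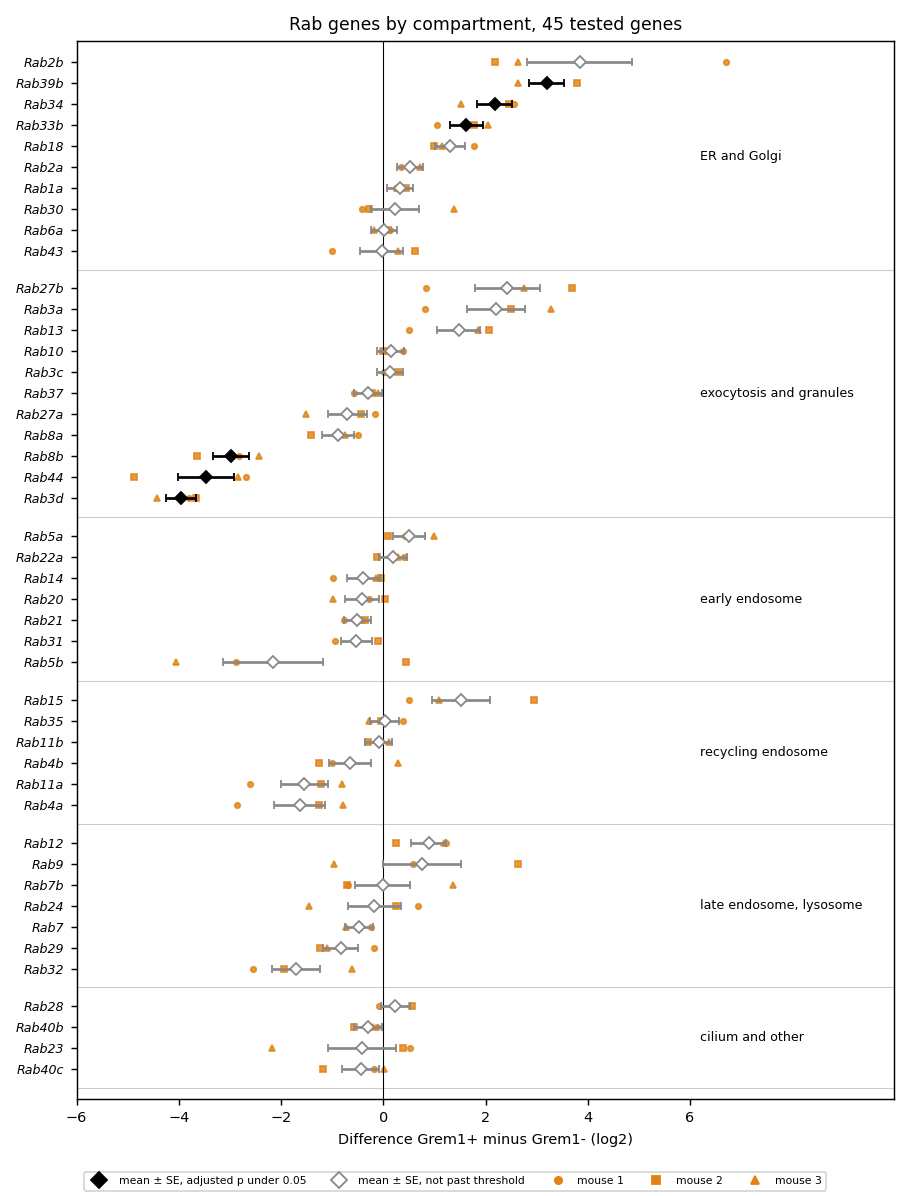
Difference in expression (x axis, Grem1+ minus Grem1-, log2) for the 45 tested Rab genes (y axis), grouped by compartment. Diamonds with bars are the mean and the limma SE over 3 mice, black where the adjusted p is under 0.05, and orange markers are the single mice. The black diamonds above 0 all lie in the ER and Golgi group, and those below 0 all lie in the exocytosis group.

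In the ER and Golgi group most differences were positive. The array held 15 such genes and 10 passed the filter. Of these, 3 were higher, 0 lower, and 9 had a positive difference, with a median of 0.91 (log2). The higher genes are 30.0% of the group, against 11.7% of all genes, and the positive differences 90.0%, against 52.0% of all genes. The other tested members, Rab2b, Rab18, Rab2a, Rab1a, Rab30, Rab6a and Rab43, did not pass. Rab39b is a Golgi-associated Rab best known from neurons, whose loss in humans causes an X-linked intellectual disability. It stood at 6.82, 6.73 and 6.19 in Grem1+ of mice 1, 2 and 3, and at 3.66, 2.95 and 3.55 in Grem1- (log2 level). Every Grem1- array was dim and every Grem1+ array was well apart from it. Rab39b was therefore at least 5.99-fold higher in Grem1+ (measured difference 3.19, SE 0.34, limma adjusted p = 0.0141), where the dim arrays were set to log2 4. Its other probe set differed by 4.44, with dim values of 1.93, 2.13 and 1.69 in Grem1-. That probe set also met the filter only through Grem1+, so it is no separate support.

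Rab34 places lysosomes near the Golgi and, in the mouse, is needed for the primary cilium and Hedgehog signalling. Its level was 5.42, 5.42 and 4.32 in Grem1+, against 2.86, 2.97 and 2.79 in Grem1- (log2). The groups did not overlap, although the Grem1+ array of mouse 3 was close to the limit. Rab34 was at least 2.08-fold higher (measured difference 2.18, SE 0.34, limma adjusted p = 0.0251). Raising all dim values to log2 4 gave a difference of 1.05, and the call was lost (limma adjusted p = 0.120). A second probe set of Rab34 was too dim to be tested and differed by 0.35.

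Rab33b works within the Golgi and binds the autophagy protein Atg16l1, and its loss in humans causes Smith-McCort dysplasia, a disorder of the skeleton. Its single probe set read 8.37, 7.65 and 8.03 in Grem1+, against 7.31, 5.87 and 5.99 in Grem1- (log2 level). The groups did not overlap, and mouse 1 had the smallest gap. The difference was 1.63 (SE 0.32, limma adjusted p = 0.0402). The call was lost without the filter on dim probe sets (adjusted p = 0.0611) and with an intensity trend (adjusted p = 0.0663). On the same arrays 17 of 20 tested chondrocyte markers were higher, or 85.0%, against 11.7% of all genes. Their summed linear level ran from 45728 to 51131 in Grem1+ and from 6866 to 10259 in Grem1-. The part of cell composition in the Rab differences was not tested.

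The promoters of the 3 higher genes are shown because these genes share a compartment and a direction. Each line gives the 250 bases before the start of transcription, 5' to 3', from RefSeq (GRCm38.p6). Capitals mark matches on either strand to 7 motifs. The AP-1 site was searched as TGAGTCA and the GC box as GGGCGG. The CCAAT box has the letters of its name, and the E-box was taken as CACGTG. For ETS factors the letters were CAGGAAG, for SOX factors they were AACAAT, and for the cAMP response element they were TGACGTCA.
Rab39b (chrX:75578232-75578481, strand -): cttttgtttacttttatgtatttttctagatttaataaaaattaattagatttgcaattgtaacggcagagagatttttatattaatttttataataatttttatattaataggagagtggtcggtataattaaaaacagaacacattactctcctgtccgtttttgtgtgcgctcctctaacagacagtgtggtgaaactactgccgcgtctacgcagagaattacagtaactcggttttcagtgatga
Rab34 (chr11:78188177-78188426, strand +): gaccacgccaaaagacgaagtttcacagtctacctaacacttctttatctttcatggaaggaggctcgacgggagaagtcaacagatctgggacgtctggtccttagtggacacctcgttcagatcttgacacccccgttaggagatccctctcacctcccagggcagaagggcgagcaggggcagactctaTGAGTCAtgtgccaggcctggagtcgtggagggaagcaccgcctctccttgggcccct
Rab33b (chr3:51483716-51483965, strand +): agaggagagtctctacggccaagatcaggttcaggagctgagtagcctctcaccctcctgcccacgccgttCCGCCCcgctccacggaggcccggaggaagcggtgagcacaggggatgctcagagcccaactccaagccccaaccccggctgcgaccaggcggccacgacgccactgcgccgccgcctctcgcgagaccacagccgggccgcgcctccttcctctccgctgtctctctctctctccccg
The Rab39b window held none of these motifs. The Rab34 window, taken at the first of 2 listed starts, held an AP-1 site at positions -58 to -52 from the start, and the Rab33b window a GC box at -179 to -174. An AP-1 site lies in 4.43% and a GC box in 32.9% of the 27025 promoters of the same length, and in 3.04% and 59.9% of the 8198 promoters of tested genes. These matches are descriptions of the sequence, not of bound factors.

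Among the ER and Golgi genes that did not pass, Rab2b and Rab18 had the largest differences. Rab2b, a paralogue of the ER to Golgi regulator Rab2a, read 10.09, 8.27 and 5.54 in Grem1+ and 3.38, 6.10 and 2.91 in Grem1- (log2 level). The groups overlapped, with the Grem1+ array of mouse 3 under the Grem1- array of mouse 2. Its difference was 3.84 (SE 1.04, limma adjusted p = 0.0751). Across 4 passing probe sets the differences spanned 0.77 to 3.84. Rab18, which acts at the ER and on lipid droplets, read 10.25, 10.45 and 10.39 in Grem1+ and 8.48, 9.46 and 9.24 in Grem1- (log2 level). These groups did not overlap, and the difference of 1.30 (SE 0.30) stood just outside the threshold (limma adjusted p = 0.0541). It passed under 5 of 17 alternatives. Rab1a and Rab2a, which serve the step from ER to Golgi in every cell, differed by 0.32 and 0.52 with no overlap between groups, and neither passed. The 6 passing probe sets of Rab2a ranged from -0.70 to 0.97. Rab6a, the main Rab of traffic within and out of the Golgi, differed by 0.01, and Rab30 and Rab43 differed by 0.23 and -0.03.

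**Figure D2:**
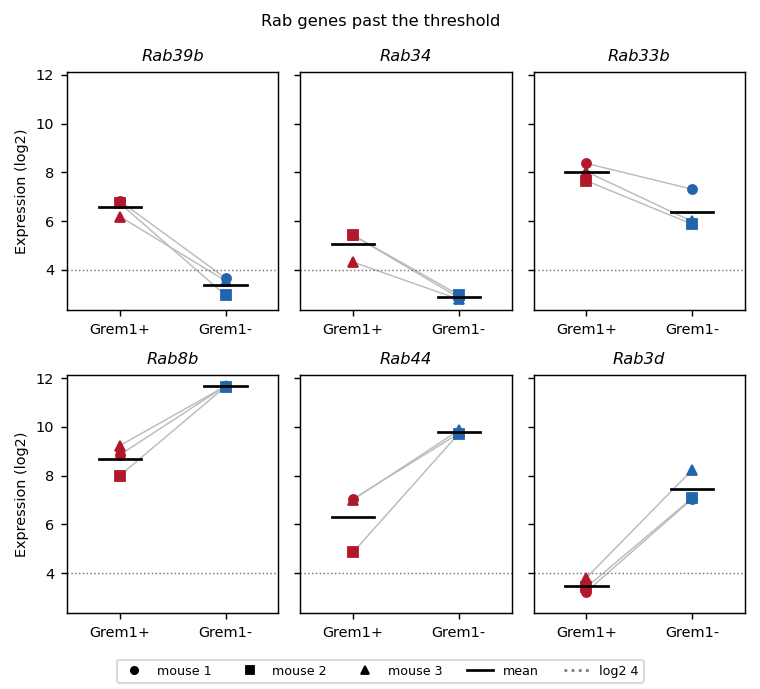
Expression (y axis, log2) of the 6 Rab genes past the threshold in Grem1+ and Grem1- (x axis). Symbols are mice, grey lines join the fractions of a mouse, black bars are means of 3 arrays and the dotted line is log2 4. In each of the 6 genes all 3 mice move the same way and the groups do not overlap.

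The exocytosis and granule group split. The array held 13 such genes and 11 passed the filter. In Grem1+ 0 were higher and 3 lower, which is 27.3% lower against 8.51% of all genes. The groups did not overlap for 8, or 72.7%, against 43.1% of all genes. The tested members that did not pass were Rab27b, Rab3a, Rab13, Rab10, Rab3c, Rab37, Rab27a and Rab8a. Rab3d sits on the zymogen and secretory granules of exocrine and blood cells. It read 3.23, 3.41 and 3.81 in Grem1+, against 7.04, 7.07 and 8.23 in Grem1- (log2 level). All Grem1+ arrays were dim and all Grem1- arrays were bright. Rab3d was at least 10.9-fold lower in Grem1+ (measured difference -3.96, SE 0.30, limma adjusted p = 0.00948). Differences of its 3 passing probe sets spanned -3.96 to -1.81.

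Rab44 is a large atypical Rab with a calcium-binding domain, described in bone marrow and mast cells. It was at 7.04, 4.85 and 7.01 in Grem1+, against 9.73, 9.72 and 9.86 in Grem1- (log2 level). The Grem1- arrays lay close together, and the Grem1+ array of mouse 2 was the lowest. The difference was -3.47 (SE 0.55, limma adjusted p = 0.0259), and the call was lost without the filter on dim probe sets (adjusted p = 0.0619). Rab8b carries cargo from the trans-Golgi network to the plasma membrane together with Rab8a. It was at 8.85, 8.00 and 9.23 in Grem1+, against 11.68, 11.65 and 11.67 in Grem1- (log2 level). Rab8b stayed bright in Grem1+ but below every Grem1- array, with a difference of -2.97 (SE 0.35, limma adjusted p = 0.0165). Its second probe set differed by only -0.62. Without mouse 2, whose Grem1+ array was the lowest, the difference of Rab44 was -2.77. With each mouse left out in turn the differences ranged from -4.11 to -3.73 for Rab3d and from -3.24 to -2.63 for Rab8b.

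Most markers of blood cells were also lower in Grem1+ on these arrays. Of 18 tested pan-haematopoietic markers 13 were lower (72.2%, against 8.51% of all genes) and 0 higher in Grem1+. Their summed linear level ran from 5412 to 11130 in Grem1+ and from 31889 to 34733 in Grem1-. Cd48 and Cd37 were dim on all Grem1+ arrays, and Runx1 had a difference of 0.65 without passing. Of 14 granulocyte markers 11 were lower (78.6%), with sums of 3408 to 12095 in Grem1+ and 27784 to 29535 in Grem1-. The mast cell and basophil markers summed to 89.8 to 696 in Grem1+ and to 2612 to 2884 in Grem1-, where the sum was mostly that of Hdc, the histidine decarboxylase. Hdc was at 2.77, 7.70 and 9.19 in Grem1+ and at 11.39, 11.23 and 11.23 in Grem1- (log2 level, limma adjusted p = 0.0931). Of the 3 tested members of this list only Mcpt8 passed, lower by -2.84 (limma adjusted p = 0.0122), which is 33.3%, against 8.51% of all genes. Mcpt4, Tpsb2, Tpsab1 and Cma1 were dim on all arrays of both groups. Also lower in Grem1+ were 4 of 6 monocyte and macrophage (66.7%), 3 of 5 erythroid (60.0%) and 4 of 7 B lineage markers (57.1%). Of 3 megakaryocyte and platelet markers 1 was lower (33.3%). Of all genes 8.51% were lower. Higher were 6 of 10 osteoblast (60.0%) and 1 of 3 osteoclast markers (33.3%), against 11.7% of all genes. The osteoclast marker was Nfatc1, whose 5 passing probe sets spanned -0.66 to 4.77. Ctsk and Acp5 differed by 1.58 and -0.93 without passing. Calcr, Ocstamp, Dcstamp, Atp6v0d2 and Oscar were dim on all arrays of both groups. Of 3 endothelial markers 0 passed in limma, and 2 had an unadjusted p under 0.05, as had 3666 of all 10151 genes. C1qb, Gp1bb and Vwf had positive differences of 0.92, 0.34 and 0.11 without passing. The part of these cell types in the lower Rab genes was not tested.

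The promoters of Rab3d and Rab8b, the lower genes with an entry, are shown for comparison with the higher genes, under the same rules.
Rab3d (chr9:21918184-21918433, strand -): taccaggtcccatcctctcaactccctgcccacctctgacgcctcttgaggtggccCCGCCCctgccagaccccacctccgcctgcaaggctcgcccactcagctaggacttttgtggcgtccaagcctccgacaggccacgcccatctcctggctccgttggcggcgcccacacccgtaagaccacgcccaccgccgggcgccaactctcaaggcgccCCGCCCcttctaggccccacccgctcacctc
Rab8b (chr9:66919706-66919955, strand -): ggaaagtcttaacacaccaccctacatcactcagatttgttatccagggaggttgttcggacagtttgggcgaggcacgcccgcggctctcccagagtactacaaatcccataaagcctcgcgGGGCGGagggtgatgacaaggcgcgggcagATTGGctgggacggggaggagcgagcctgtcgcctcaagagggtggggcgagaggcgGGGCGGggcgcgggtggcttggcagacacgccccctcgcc
Rab3d held GC boxes at -194 to -189 and at -31 to -26. Rab8b held GC boxes at -127 to -122 and at -40 to -35, and a CCAAT box at -97 to -93. A CCAAT box lies in 34.5% of the 27025 promoters.

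Several exocytic Rab genes stood on the other side, without passing. Rab27b docks granules at the plasma membrane and is prominent in platelets. It read 5.49, 6.99 and 6.66 in Grem1+ and 4.66, 3.31 and 3.90 in Grem1- (log2 level), with no overlap. The difference was 2.42 (SE 0.64, limma adjusted p = 0.0717), with 2.14 on its other passing probe set. That probe set met the filter only through Grem1+ and was dim on every Grem1- array, so it is no separate support. Of the 9 megakaryocyte and platelet markers, 6 were dim on all Grem1+ arrays and 5 on all Grem1- arrays, and the list summed to 98.4 to 145 in Grem1+ and 139 to 426 in Grem1-. Rab3a, the synaptic vesicle Rab, read 4.55, 5.76 and 6.02 in Grem1+ and 3.73, 3.27 and 2.73 in Grem1- (log2 level). Its groups did not overlap, but the only passing probe set ends in _x_at, a type that other transcripts may share. The other probe set of Rab3a was dim on all arrays and differed by 0.17. The difference was 2.20 (SE 0.56, limma adjusted p = 0.0682). Rab13, a Rab of cell junctions and the trans-Golgi network, differed by 1.48 (SE 0.42, limma adjusted p = 0.0849). Without the block all 3 of these genes passed, at adjusted p-values of 0.0201 for Rab27b, 0.0203 for Rab3a and 0.0418 for Rab13.

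Among the exocytic genes, paralogues of the Rab3 and Rab27 subfamilies had differences of opposite sign. Rab3d was lower by -3.96 while Rab3a stood at 2.20, on the shared type of probe set, and Rab3c at 0.13 (log2 difference). Rab3c lay near log2 4, at 4.03 in Grem1+ and 3.90 in Grem1-. Rab27a, the Rab of cytotoxic granules and melanosomes, differed by -0.71 (SE 0.38, limma adjusted p = 0.271) with groups that did not overlap, while Rab27b stood at 2.42. Rab8a, at -0.88 (SE 0.32, limma adjusted p = 0.134), had the same sign as Rab8b. These gaps between paralogues were not tested. Rab10, which carries transporters and matrix cargo to the surface, differed by 0.14, and Rab37, a mast cell granule Rab, by -0.30.

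**Figure D3:**
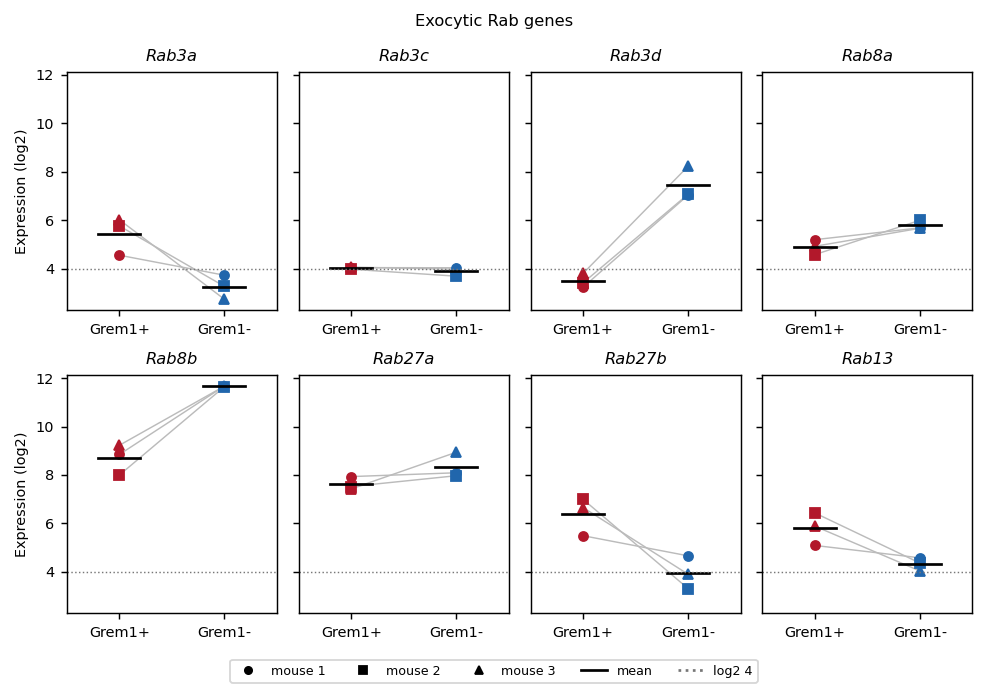
Expression (y axis, log2) of 8 exocytic Rab genes in Grem1+ and Grem1- (x axis), drawn as symbols for mice, black bars for means of 3 arrays and a dotted line at log2 4. Rab3d and Rab8b are lower in Grem1+, and Rab3a, Rab27b and Rab13 sit higher in Grem1+ without passing the threshold.

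No gene of the endosomal groups passed. Of 7 tested early endosome genes 5 had a negative difference, with a median of -0.41 (log2). That is 71.4%, against 48.0% of all genes. Rab5b, one of the Rab5 paralogues that drive fusion of early endosomes, read 4.57, 6.98 and 4.83 in Grem1+ and 7.44, 6.53 and 8.89 in Grem1- (log2 level). Mouse 2 went against the other mice, and the difference was -2.16 (SE 0.98, limma adjusted p = 0.203). Rab31, a Rab of the trans-Golgi network and endosomes, differed by -0.53 (SE 0.30, limma adjusted p = 0.295). Rab5a, Rab22a, Rab14, Rab20 and Rab21 lay between -0.51 and 0.50. Rab14, which acts between endosomes and the Golgi, illustrates how far probe sets of a gene can part. The brightest differed by -0.39, and all 7 together spanned -3.21 to 0.36. With their mean Rab14 passed at -1.06 (limma adjusted p = 0.0497).

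Of 6 tested recycling endosome genes 4 had a negative difference, which is 66.7%, against 48.0% of all genes. Rab11a, the central Rab of slow recycling, read 7.83, 8.67 and 9.63 in Grem1+ and 10.45, 9.89 and 10.44 in Grem1- (log2 level). The groups did not overlap, and the difference was -1.55 (SE 0.46, limma adjusted p = 0.0908), while its second probe set differed by -0.40. Rab4a, the Rab of fast recycling, differed by -1.63 (SE 0.50, limma adjusted p = 0.0989), with 2.42, 6.57 and 6.05 in Grem1+ and 5.27, 7.82 and 6.84 in Grem1- (log2 level). Its groups overlapped because mouse 1 was low in both fractions. Rab15, Rab35, Rab11b and Rab4b differed by 1.52, 0.02, -0.09 and -0.66.

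Of 7 tested late endosome and lysosome genes 5 had a negative difference, with a median of -0.18 (log2). That is 71.4%, against 48.0% of all genes. Rab32, a Rab of melanosomes and other lysosome-related organelles, read 2.90, 2.88 and 5.95 in Grem1+ and 5.46, 4.82 and 6.56 in Grem1- (log2 level). It overlapped between the groups, and it missed the threshold with a difference of -1.70 (SE 0.47, limma adjusted p = 0.0787). Rab12, which steers receptors to lysosomes, differed by 0.89 (SE 0.34, limma adjusted p = 0.149) with no overlap. Rab7, the main Rab of late endosomes, differed by -0.47 on its brighter probe set and by -1.16 on the other. Rab9, Rab7b, Rab24 and Rab29 lay between -0.84 and 0.75. In the last group, Rab23, a negative regulator of Hedgehog signalling at the cilium in the mouse, stood at 6.30, 6.50 and 4.23 in Grem1+ and at 5.77, 6.11 and 6.42 in Grem1- (log2 level). Only mouse 3 gave a negative difference, and the mean was -0.42 (SE 0.66, limma adjusted p = 0.707). Rab40c, the Rab of a ubiquitin ligase complex, differed by -0.44, Rab40b by -0.30 and Rab28 by 0.24.

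Probe sets of a gene did not always point one way. Of 24 tested Rab genes with 2 or more passing probe sets, 6 had probe sets of opposite sign, namely Rab14, Rab31, Rab2a, Rab6a, Rab10 and Rab7b. Of the 6 genes past the threshold, Rab34, Rab33b and Rab44 had only 1 passing probe set, and in Rab39b, Rab3d and Rab8b the passing probe sets shared a sign. All passing probe sets of Rab39b and some of Rab3d met the filter only through the group where they were higher. The filter fixed their sign, so this agreement is no separate support. The second probe set of Rab8b overlapped between the groups and differed by 0.31 in mouse 3. The 14 Rab genes that stayed below the filter were Rab17, Rab19, Rab1b, Rab25, Rab26, Rab33a, Rab36, Rab38, Rab39, Rab3b, Rab42, Rab5c, Rab6b and Rab9b. Rab1b and Rab5c, paralogues of widely used Rabs, each had 1 probe set here, at most at 3.68 and 3.57 in Grem1+ and at 4.13 and 3.98 in Grem1-. A dim value says only that this probe set gave little signal.

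Regulators and effectors of Rabs passed the threshold in both directions. On 7 lists with 94 tested genes, Grem1+ was higher for 8 and lower for 7. These are 8.51% and 7.45% of the lists, against 11.7% and 8.51% of all genes. They had a median difference of 0.03, and the adjusted p-values of the 15 genes in limma were 0.00906 to 0.0462. Of 6 tested genes for prenylation and GDI function 0 were higher and 0 lower in limma, and 0 had an unadjusted p under 0.05. The largest differences there were those of Rabac1 and Chml, at 0.71 and 0.70 (adjusted p = 0.151 and 0.526). Of 25 GEFs 1 was higher and 3 were lower, or 4.0% and 12.0%, against 11.7% and 8.51% of all genes. A negative difference was seen in 18 of the 25, against 48.0% of all genes. Rin2, a GEF of Rab5, was higher by 3.27 (SE 0.33), with 9.16, 9.92 and 9.97 in Grem1+ against 5.66, 6.28 and 7.31 in Grem1- (log2 level). Madd, the GEF that activates Rab3 and Rab27, was lower by -2.98 (SE 0.48), with 4.26, 6.44 and 5.30 in Grem1+ against 8.20, 8.38 and 8.35 in Grem1-. Dennd4a, a GEF of Rab10, was lower by -2.52 (SE 0.31), and Dennd2d, a DENN domain GEF, at least 3.52-fold, a bound that was 5.46-fold without mouse 2. Of 24 GAPs only Tbc1d10b, which acts on Rab27 and Rab35 in cultured cells, passed the threshold, lower by -3.51 (SE 0.35). That is 4.17% lower, against 8.51% of all genes. An unadjusted p under 0.05 in limma was seen in 6 of the 24, and in 3666 of all 10151 genes.

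Of 10 tested secretion effectors 2 were higher and 1 lower, or 20% and 10%, against 11.7% and 8.51% of all genes. Sytl2, which tethers Rab27 vesicles to the plasma membrane, was at least 6.26-fold higher, with 6.39, 8.33 and 5.23 in Grem1+ against 2.34, 2.35 and 2.80 in Grem1- (log2 level). That bound was 3.5-fold without mouse 2 and 10.2-fold without mouse 3. Mlph, melanophilin, links Rab27a to myosin Va and was at least 2.56-fold higher. Exoc6, an exocyst subunit that binds Rab11, was lower by -4.77 (SE 1.02), with 2.32, 3.69 and 7.98 in Grem1+ against 8.25, 10.11 and 9.95 in Grem1-. The Grem1+ array of mouse 3 stood well above the other Grem1+ arrays, and the difference was -6.17 without mouse 3 and -3.95 without mouse 2. The 3 probe sets of Exoc6 ranged from -4.77 to -1.20.

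Of 12 tested effectors of early and recycling endosomes 2 were higher and 1 lower, or 16.7% and 8.33%, against 11.7% and 8.51% of all genes. Micall1 organises tubular recycling endosomes with Rab8 and Rab35. It read 11.25, 11.21 and 10.94 in Grem1+ against 6.35, 6.33 and 7.29 in Grem1- (log2 level), a difference of 4.48 (SE 0.38, limma adjusted p = 0.0107). The Rab11 effectors parted, with Rab11fip2 higher by 3.98 (SE 0.47) and Rab11fip1 lower, with 5.34, 2.60 and 4.72 in Grem1+ against 7.45, 7.20 and 7.02 in Grem1- (log2 level, limma adjusted p = 0.0423). Without mouse 2 the difference of Rab11fip1 was -2.21. Of 9 late endosome effectors 2 were higher, or 22.2%, against 11.7% of all genes. Osbpl1a, a sterol-sensing partner of Rab7, was at least 9.87-fold higher. Vps41, a subunit of the tethering complex of lysosomes, was higher by 3.01 (SE 0.38), while its second probe set stood at 0.47. Of 8 Golgi effectors 1 was higher and 1 lower, or 12.5% each, against 11.7% and 8.51% of all genes. Golgb1, the golgin giantin, was higher by 1.59 (SE 0.26). Kif20a, a mitotic kinesin first found through Rab6, was lower by -2.27 (SE 0.32).

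**Figure D4:**
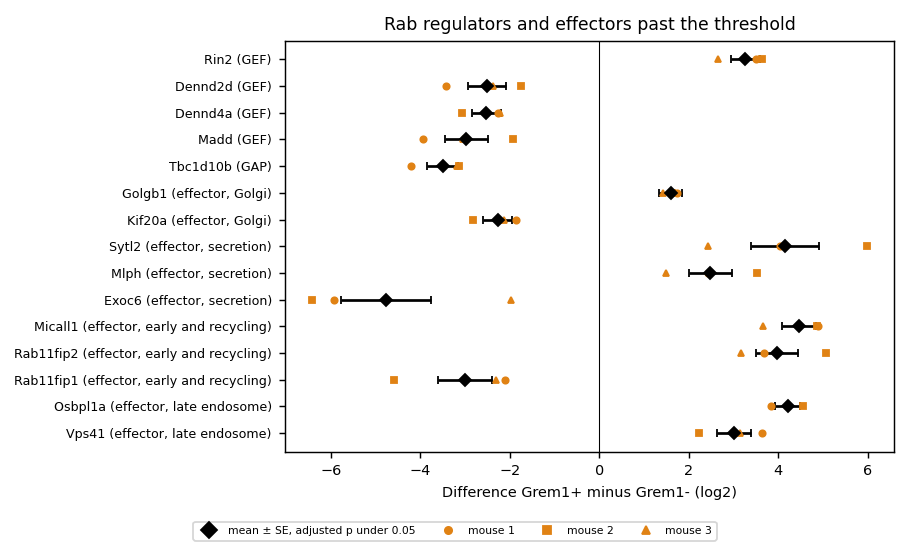
Difference in expression (x axis, Grem1+ minus Grem1-, log2) for the 15 Rab regulators and effectors past the threshold (y axis, with their role). Diamonds with bars are the mean and the limma SE over 3 mice, and orange markers are the single mice. The single GAP and 3 of the 4 GEFs lie below 0, and 7 of the 10 effectors lie above 0.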

How the data were processed

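Expression was measured on 6 Affymetrix arrays, 3 per fraction, with RNA amplified by the NuGEN Ovation One-Direct System, per the labels' protocols. The authors deposited log2 expression for each probe set, made with GCRMA per the submitters' processing notes, with no version or settings stated. That the scale is log2 was judged from the range of 0.798 to 14.05. Of 45101 probe sets, those with 1 symbol in the platform annotation were used. For each gene the probe set with the highest mean among those above log2 4 on at least 3 arrays was taken, which left 10151 genes.

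Differences are Grem1+ minus Grem1-, tested with limma 3.58.1 in R 4.3.3 (lmFit and eBayes, mouse as a block, two-sided, Benjamini-Hochberg over all genes, threshold 0.05). Both fractions came from the same mice per the series' design text. The titles carry a replicate number, which was taken as the mouse, so the pairing of same-numbered arrays is an assumption. Deviations from the group means of same-numbered arrays correlated at 0.014, 0.074 and 0.046. Residual degrees of freedom were 2 and prior ones 2.10, and the number of arrays limits the precision. Where a called gene was dim on every array of its lower group, the fold is a bound, computed after raising dim values to log2 4. Tested on simulated data for these 10151 genes, the fit recovered 0% of genes changed by log2 1, 22% at 2, 94% at 4 and 100% at 6. There 50 genes were changed at each size, a far smaller share than the 20.2% of genes called in the data. The adjusted threshold is stricter in that case, so these rates cannot be carried over to the data.

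Members, lists, compartments and tests were chosen with earlier results of these data known, and each Rab was given 1 main compartment from general knowledge. All Rab genes past the threshold are named, the others by compartment with values for those of largest difference, and per regulator list up to 4 genes past the threshold with the largest differences, or 2 where none passed. The alternatives covered the filter, the choice of probe set, the block, scaling, dim values, the variance model and each mouse left out. No genome was used here, and promoter sequences are from RefSeq (GRCm38.p6), which listed 48 of the 59 Rab genes.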

Additional observations from a re-analysis of the deposited data

Results flagged for a closer look

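Probe sets that were too dim to enter the comparison held signal on a Grem1+ array in 4 Rab genes, where the highest Grem1+ array exceeded log2 4 and lay more than log2 1 above every Grem1- array. A probe set of Rab2b reached 7.18 in Grem1+ of mouse 2, against at most 3.79 in Grem1-. The brightest probe set of Rab6b, a paralogue of Rab6a best known from neurons, reached 6.94 in Grem1+ of mouse 1, against at most 3.62 in Grem1-, and its other Grem1+ arrays were at 3.02 and 2.78. A second probe set of Rab30 reached 6.64 in Grem1+ of mouse 2, where every Grem1- array was dim. Another dim probe set of Rab23 reached 5.58 in Grem1+ of mouse 2, against at most 3.71 in Grem1-. Each of the 4 values is the highest of its 3 Grem1+ arrays, and none was tested. By the same limits turned round, untested probe sets of 2 Rab genes held signal on a Grem1- array. A probe set of Rab4a was at most at 4.44 in Grem1+ and reached 6.17 in Grem1- of mouse 3, and a probe set of Rab3d was at most at 3.76 in Grem1+ and reached 5.80 in Grem1- of mouse 3.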

How the results depend on the processing

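The 6 Rab genes past the threshold kept their direction under every alternative in which they were tested. All 6 remained past it with the most variable probe set, without probe sets of the shared type, without the replicate block, and with quantile normalization, median centring or cyclic loess. The count of higher Rab genes was 3, and became 7 with the mean of probe sets, 7 with no replicate block and 5 with an intensity trend. Calls over all genes also rose in these 3 settings, to 27.1%, 25.1% and 23.8%, from 20.2% in the main fit. The count of higher ER and Golgi genes became 5 with the mean of probe sets. The count of higher exocytosis genes was 0, and became 2 with the mean of probe sets, 3 with no replicate block and 1 with an intensity trend. The remaining compartments had 0 calls, and 1 with the mean of probe sets. Higher regulators and effectors numbered 8, and became 16 with the mean of probe sets and 13 with no replicate block. The lower ones numbered 7, and became 12 with the mean of probe sets and 3 without the filter. The Rab median of -0.03 became -0.14 with the mean of probe sets, -0.30 with the most variable probe set and -0.085 with dim values set to log2 4. Over all genes the main counts were 1191 higher and 864 lower, against 830 and 500 without the filter. With each mouse left out in turn, with or without the block, counts ranged from 0 to 5 for higher Rab genes, 0 to 4 for lower Rab genes, 0 to 2 for higher ER and Golgi genes, 0 to 3 for higher and 0 to 3 for lower exocytosis genes, 0 to 1 in the remaining compartments, 0 to 10 for higher and 0 to 6 for lower regulators. The Rab median then ranged from -0.13 to -0.081, at -0.095 without mouse 1. With the block the count over all genes was 0 for each mouse left out in limma, where 2881 to 3018 genes had an unadjusted p under 0.05, and fewer samples leave 1 residual degree of freedom. Signs turned in genes that did not pass under either setting. With the mean of probe sets these were Rab10 at -0.022, Rab6a at -0.22 and Rab7b at 0.055. With the most variable probe set they were Rab10 at -0.36, Rab2a at -0.70, Rab31 at 0.022 and Rab6a at -0.71. With quantile normalization they were Rab35 at -0.00061, Rab6a at -0.063 and Rab7b at 0.00095, and with cyclic loess Rab43 at 0.0070 and Rab7b at 0.033. With each mouse left out in turn the difference ranged from -0.19 to 0.027 for Rab11b, -0.89 to 0.46 for Rab23, -0.60 to 0.46 for Rab24, -0.35 to 0.55 for Rab30, -0.16 to 0.17 for Rab35, -0.36 to 0.45 for Rab43, -0.039 to 0.11 for Rab6a, with -0.028 without mouse 2, -0.70 to 0.34 for Rab7b, with 0.33 without mouse 1, and -0.19 to 1.61 for Rab9. The cause of these shifts was not tested. Signal near log2 4 limits the dim genes, for which a fold is only a bound.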

Other observations

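GC boxes (GGGCGG on either strand) were frequent in the 250 bases before Rab genes. They lay in 33 of 48 Rab promoters, 68.8%, against 32.9% of all 27025 promoters. Over tested genes the share was 26 of 37 for Rab genes and 59.9% for all 8198. The CCAAT box lay in 22 of 48 Rab promoters, 45.8%, against 34.5% of all promoters, and AP-1 sites in 1 of 48, against 4.43%. These shares are descriptions with no test, and the Rab promoters belong to paralogues of a family.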
